A study of Mus musculus with 384 samples.

Results

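Teneurins, Flrt proteins and the netrin receptors Unc5 and Dcc are cell-surface proteins that neurons use to recognise partners and to steer axons and dendrites. The 10 genes Tenm1, Tenm2, Tenm3, Tenm4, Flrt1, Flrt2, Flrt3, Unc5c, Unc5d and Dcc were taken by name from the 32813 genes measured. All 10 had a row of values. Teneurins are large transmembrane proteins that bind each other and bind latrophilins (Lphn1 to Lphn3, now named Adgrl1 to Adgrl3), adhesion receptors on the opposing cell. Flrt proteins, which carry leucine-rich repeats and a fibronectin domain, also bind latrophilins, and they bind Unc5 receptors, which can turn attraction into repulsion. Netrins bind Dcc for attraction and Unc5 receptors for repulsion. In the retina several of these proteins are known to take part in the choice of synaptic partners and of laminae.

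Fluorescent cells were sorted singly from retinas at postnatal day 17, and their transcriptomes were read with Smart-seq2, which amplifies whole cDNAs. The mice carried Kcng4tm1.1(cre)Jrs, which places Cre recombinase at the Kcng4 locus, together with Thy1-stop-YFP Line#1, a reporter that Cre switches on. Cells were therefore labelled by present or past Kcng4 activity where the Thy1 promoter is also active, and no unlabelled or untreated cells are analysed here. Each of 4 retinas of 2 mice (1la and 1Ra, 2la and 2Ra, with the meaning of la and Ra not given) gave 96 wells, so a retina cannot be told apart from its set of wells.

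Of 384 cells listed, 383 had values and 321 had at least 3000 genes at an expected count of 1 or more. Cells were grouped by which of 3 marker genes they held at 20 TPM, the deposited unit that scales reads by transcript length and library size, or more. Exactly 1 of Sox6, Vsx1 and Ddit4l was at that level in 270 cells, namely 151 Sox6-only, 60 Vsx1-only and 59 Ddit4l-only cells. Another 33 cells had none of the 3 and 18 had more than 1. These marker genes chose the groups and are not results. The lowest value inside and the highest outside the threshold were 20.8 and 18.7 TPM for Sox6, 31.01 and 15.8 for Vsx1, and 28.96 and 16.9 for Ddit4l. Sox6-only, Vsx1-only and Ddit4l-only cells had 10, 10 and 9 of 12 bipolar cell markers at 1 TPM or more in most cells, among them Otx2, Grm6 and Trpm1. Total counts per cell in the groups ran from 203657 to 1945582, with group medians of 1067453, 1072603 and 1091485. Retina 1Ra was the shallowest in each group. Rod markers reached 1 TPM in most cells for 4, 4 and 2 of 8 genes, and their summed mean level ranged over retinas from 1271 to 2831, from 935 to 3881 and from 707 to 2117 TPM. Müller glia markers did so for 3, 2 and 2 of 8 genes, with sums per retina of 330 to 843, 247 to 2209 and 339 to 408 TPM. Horizontal cell markers did so for 2 of 5 genes in each group (Calb1 and Sept4), amacrine markers for Pax6 alone and cone markers for Pde6h alone. Ganglion cell markers did so for 1 of 8 genes (Thy1) in Sox6-only cells and for 0 in the other groups. Their sums per retina were 30.3 to 48.1, 10.8 to 26.03 and 16.6 to 46.1 TPM. The part of these transcripts in the differences below was not tested, apart from the rod transcripts. Microglial and endothelial lists had no gene at 1 TPM in most cells, and Cldn5 and Cdh5 were at 0 in all 3 groups.

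The main comparison summed rounded expected counts per mouse and marker group and tested the 6 sums with edgeR's quasi-likelihood test, with the mouse as a block. The replicate is the mouse (n = 2). A gene was called where its Benjamini-Hochberg adjusted p over all genes was under 0.05 and its log2 fold change was 1 or more in size. Of the 16646 genes tested, all 10 among them, the calls were 0 (0%) for Sox6-only against Vsx1-only, 0 (0%) for Sox6-only against Ddit4l-only and 7 (0.0421%) for Vsx1-only against Ddit4l-only. No teneurin, Flrt, Unc5 gene or Dcc was among them. At an unadjusted p under 0.05 the test gave 1429 genes (8.58%), 1342 (8.06%) and 2141 (12.9%), and from the 10 genes only Flrt3 in the first, Tenm2 in the second, and Flrt3 and Tenm2 in the third. The same test on sums per retina, with the retina as the block, called 117 (0.806%), 80 (0.551%) and 333 (2.3%) of 14508 genes, and DESeq2 on the mouse sums called 853 (5.12%), 761 (4.57%) and 1615 (9.7%). Both called Flrt3 and Tenm2 in the contrasts just named, and DESeq2 also called Tenm3 and Unc5d in the third. The median log2 fold changes of the 10 genes were -0.03, 0.93 and 1.89 in the 3 contrasts, beside 0.05, 0.08 and 0.01 over all genes tested. Without Flrt2, which had sums of 0, they were -0.09, 0.50 and 1.91, and on retina sums -0.12, 0.30 and 1.25. In the third contrast these medians are values of sparsely detected genes, Flrt1 (1.91) and, on retina sums, Unc5c (1.25). On mouse sums Tenm1, Tenm2, Tenm3, Tenm4, Flrt3 and Dcc gave -0.14, 2.26, 3.27, 0.47, -2.56 and 0.53 there. The medians are therefore no measure of a shift shared by the 10 genes. The 2 retinas of a mouse are not separate animals, and p-values over retinas are therefore too small where mice are meant. DESeq2 p-values come from a normal distribution, which makes no allowance for a spread estimated from 2 mice. They too can be too small.

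**Figure D1:**
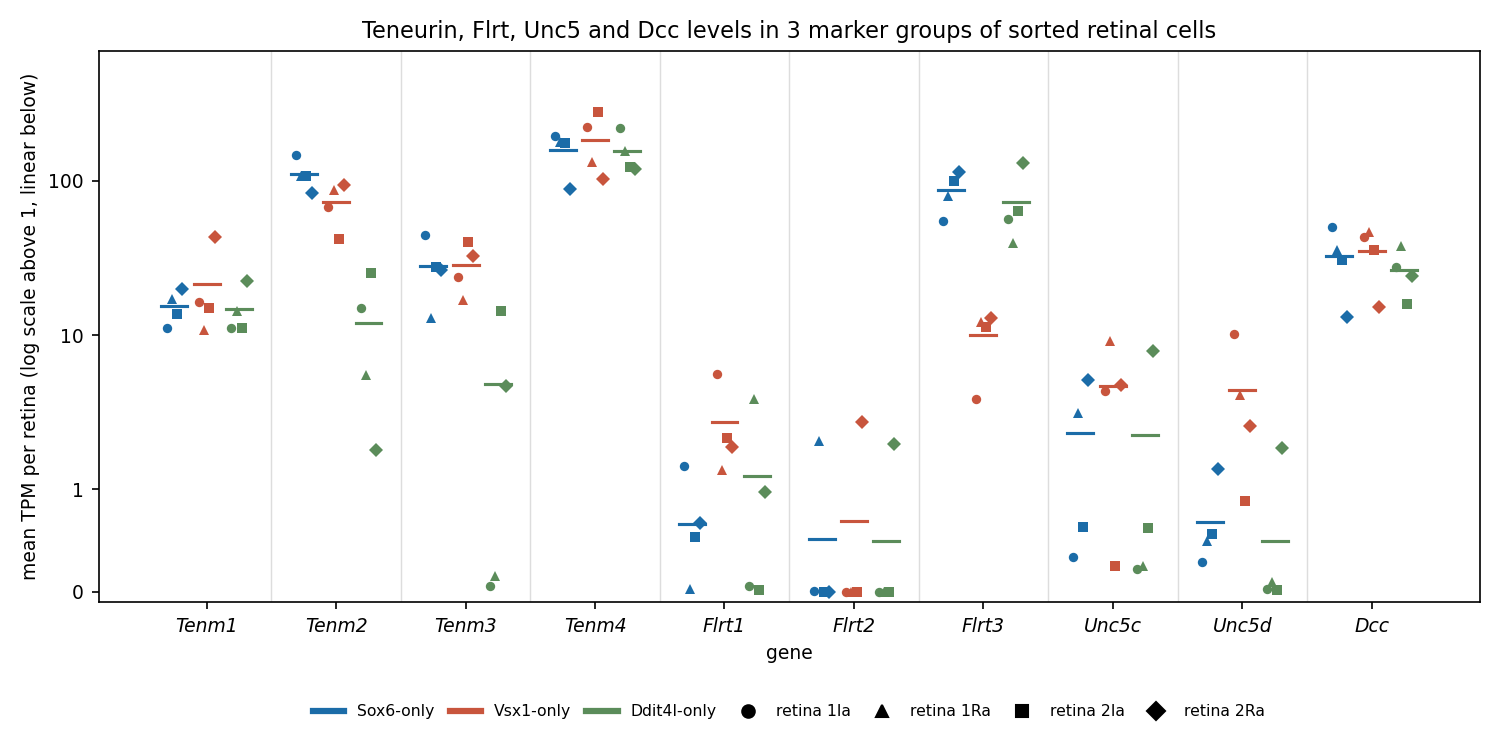
Mean TPM per retina (log scale above 1, linear below) of the 10 genes in Sox6-only (blue), Vsx1-only (red) and Ddit4l-only (green) cells. Each symbol is a retina and each bar the mean of the 4 retinas. The Tenm2 retinas of Ddit4l-only cells lie below those of the other groups, and the Flrt3 retinas of Vsx1-only cells lie below those of the other groups.

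Tenm4 had the highest mean TPM of the 10 genes in every group. In Sox6-only cells it was followed by Tenm2 and Flrt3, whose retina ranges overlapped, then by Dcc, Tenm3 and Tenm1 and, again apart, by Unc5c, Unc5d, Flrt1 and Flrt2. In Vsx1-only cells Tenm4 stood alone above an unbroken series of overlapping ranges from Tenm2 to Flrt2. In Ddit4l-only cells Tenm4 and Flrt3 overlapped and stood above Dcc and the rest. Tenm4 lies on the plus strand of chromosome 7 (chr7:96171246-96911093, mm10), and Tenm2 and Tenm3 on the minus strands of chromosomes 11 (chr11:36006656-37235964) and 8 (chr8:48227682-48843951). Its mean level in retinas 1la, 1Ra, 2la and 2Ra was 196, 178, 176 and 88.1 TPM in Sox6-only cells. The 4 values were 223, 133, 281 and 103 TPM in Vsx1-only cells and 221, 157, 123 and 120.1 TPM in Ddit4l-only cells. All 3 ranges overlapped, and retina 2Ra was the lowest in each group. At least 1 TPM was found in 97.4%, 96.7% and 83.1% of Sox6-only, Vsx1-only and Ddit4l-only cells. The log2 fold change was 0.02 ± 0.21 (SE, n = 2 mice) between Sox6-only and Vsx1-only cells, with a 95% interval of -0.53 to 0.57. Intervals of fold changes use 4.41 degrees of freedom, the residual ones of the fit plus those that edgeR borrows from other genes. Against Ddit4l-only cells the log2 fold change of Tenm4 was 0.50 ± 0.21 for Sox6-only cells and 0.47 ± 0.21 for Vsx1-only cells. The edgeR adjusted p-values were 0.642 and 0.443. Tenm4 has 988 exonic bases in common with C230038L03Rik on the opposite strand, and strand was not stated for the counting, so reads there cannot be assigned to either gene.

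Tenm2 was lowest in Ddit4l-only cells. Its retina means (1la, 1Ra, 2la, 2Ra) were 147, 108, 107 and 83.97 TPM in Sox6-only cells. They were 67.8, 87.4, 41.9 and 93.5 TPM in Vsx1-only cells and 14.9, 5.51, 25.4 and 1.80 TPM in Ddit4l-only cells. Every Sox6-only and every Vsx1-only retina was above every Ddit4l-only retina, which held for 6.66% and 7.46% of all genes in either direction in these 2 contrasts. In CPM, counts scaled to library size, the 2 mice gave 136 and 94.4 in Sox6-only, 83.1 and 71.2 in Vsx1-only, and 14.8 and 17.2 in Ddit4l-only sums. The log2 fold change over Ddit4l-only cells was 2.83 ± 0.34 (SE) for Sox6-only and 2.26 ± 0.34 for Vsx1-only cells, or 7.10-fold and 4.78-fold. The edgeR adjusted p-values were 0.302 and 0.154 on mouse sums, 0.0130 and 0.0158 on retina sums, and 5.22e-11 and 1.36e-07 with DESeq2, so the call depends on the test.

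Single cells of a group varied widely in Tenm2, from 0 to 669, 652 and 201 TPM in Sox6-only, Vsx1-only and Ddit4l-only cells. It reached 1 TPM in 108 of 151 Sox6-only cells (71.5%, 95% Clopper-Pearson interval 63.6% to 78.6%) and in 43 of 60 Vsx1-only cells (71.7%, 58.6% to 82.5%). The count was 15 of 59 Ddit4l-only cells (25.4%, 14.98% to 38.4%). The intervals cover counting error only. With cells thinned to 300000 counts the shares having at least 1 count were 70.9%, 72.9% and 22.03%, and unthinned they were 78.1%, 75% and 28.8%. The thinned shares, here and for Flrt3 and Unc5d below, leave out 1 Vsx1-only cell with fewer counts, so 59 remain. Between Sox6-only and Vsx1-only cells the log2 fold change of Tenm2 was 0.57 ± 0.32 (edgeR adjusted p = 0.743), with a 95% interval of -0.29 to 1.43. Rod transcripts summed to at least 1000 TPM in 44 Sox6-only, 19 Vsx1-only and 12 Ddit4l-only cells. Without those cells the log2 fold changes over Ddit4l-only cells were 3.63 and 3.26.

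**Figure D2:**
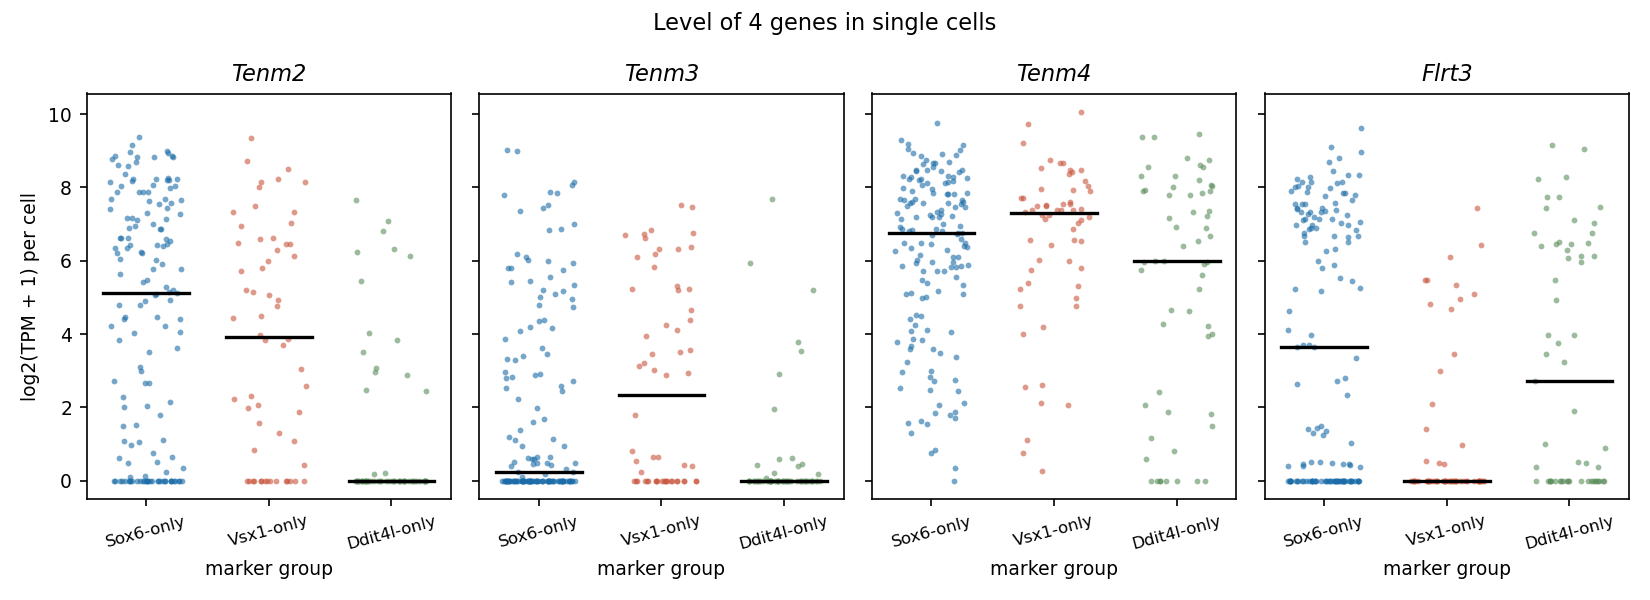
Level of Tenm2, Tenm3, Tenm4 and Flrt3 in each cell, as log2(TPM + 1), by marker group. Each dot is a cell and each bar the median over cells, which is 0 for Tenm2 in Ddit4l-only cells and for Flrt3 in Vsx1-only cells.

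Tenm3, which in the visual system is known for matching axons to targets, was lower on average in Ddit4l-only cells, but with a wide spread. Its retina means were 44.8, 12.99, 27.5 and 26.5 TPM in Sox6-only and 23.97, 16.8, 39.98 and 32.6 TPM in Vsx1-only cells. In Ddit4l-only cells they were 0.057, 0.152, 14.4 and 4.69 TPM. The first pair of those is mouse 1, whose Ddit4l-only sum held 12 Tenm3 counts, against 760 in mouse 2. Vsx1-only and Ddit4l-only retinas did not overlap, while the Sox6-only retina 1Ra lay below the Ddit4l-only retina 2la. The log2 fold change over Ddit4l-only cells was 3.09 ± 1.67 for Sox6-only and 3.27 ± 1.61 for Vsx1-only cells, with edgeR adjusted p-values of 0.714 and 0.489. With DESeq2 the second passed (adjusted p = 0.0314). By mouse the fold changes were 6.84 and 1.03 on the log2 scale for Sox6-only cells and 6.79 and 1.88 for Vsx1-only cells. A level of 1 TPM was met in 60 of 151 Sox6-only, 31 of 60 Vsx1-only and 7 of 59 Ddit4l-only cells (39.7%, 51.7% and 11.9%).

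Tenm1 was at a low level with overlapping ranges in the 3 groups. Its retina means lay between 10.7 and 43.1 TPM over all groups, the highest being retina 2Ra of Vsx1-only cells. It reached 1 TPM in 146 of 151, 60 of 60 and 56 of 59 cells. The absolute log2 fold changes of the mouse sums were at most 0.14, with standard errors of 0.67 to 0.68 and 95% intervals that reached from -1.75 to 1.85, from -1.91 to 1.73 and from -1.93 to 1.64.

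Cells with several teneurins were fewest among Ddit4l-only cells in these libraries. At 20 TPM or more, 95 of 151 Sox6-only cells and 42 of 60 Vsx1-only cells had at least 2 of the 4 teneurins (62.9% and 70%), against 11 of 59 Ddit4l-only cells (18.6%). By retina the shares were 56.5% to 69.7%, 61.1% to 78.6% and 10% to 30%. Without Tenm1, whose TPM rests on a short assigned transcript, 77 of 151, 36 of 60 and 6 of 59 cells had at least 2 of the other 3, or 36.7% to 66.7%, 50% to 71.4% and 0% to 25% by retina. The difference between groups in these shares was not tested. No teneurin was at that level in 7, 2 and 12 cells. Tenm4 was at 20 TPM in 67 of 86 Sox6-only cells with Tenm2 (77.9%) and in 49 of 65 without (75.4%). In Vsx1-only cells the shares were 25 of 29 (86.2%) and 26 of 31 (83.9%). Tenm3 was likewise at 20 TPM in 20.9% of Sox6-only cells with Tenm2 and in 21.5% of those without.

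The teneurin values depend on which transcripts the reads were assigned to. In the deposited tables a gene's expected count divided by its TPM is, up to a factor per cell, the mean effective length of the transcripts that RSEM assigned its reads to. That factor was set from 3880 genes with a single transcript in the GENCODE M21 annotation. Over 704 of these same genes the median implied length was 1.00 times the annotated one (middle 80% from 0.937 to 1.01). A median near 1 follows from how the factor was set, so only the spread is informative. Implied lengths of the 10 genes were examined after the data had been seen, in cells with at least 5 counts of a gene. For Tenm1 the implied length was near 1130 bases in nearly all cells: 214 of 229 cells fell within 50 bases of it, and 4 exceeded 60% of the longest transcript. The 3 protein-coding Tenm1 transcripts of GENCODE M21 have 8365, 12837 and 12879 bases. The size is close to that of the shortest annotated Tenm1 transcript, a non-coding processed transcript of 1143 bases with 3 exons on the minus strand of chromosome X (mm10). They lie at chrX:43428288-43429003, chrX:43410699-43410751 and chrX:43323955-43324328, and the last is upstream of the start of the coding transcripts. The authors' annotation is not given in the sources used here, so the match is by size alone. Tenm1 also has 1465 exonic bases in common with Sh2d1a on the opposite strand. The junction of its exons 2 and 3, which no other annotated transcript of the 10 genes holds, is shown with the exon 3 bases in capitals (transcript positions 755 to 784).
Short Tenm1 exon 2 to 3 junction: tctggatctaacaagGAGCGAGATTTTGAA

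For the other teneurins the implied length varied from cell to cell. The median over cells was 1438 bases for Tenm2, with 42 of 182 cells above 60% of its longest transcript of 9908 bases. It was 3385 bases for Tenm3 (47 of 111 cells, longest 8961) and 2545 bases for Tenm4 (54 of 293 cells, longest 13172). Flrt3, a gene with its coding sequence in 1 exon, had a median of 3857 bases, and 137 of 155 cells exceeded 60% of the 3977-base transcript. Unc5d was near 9005 bases (longest 9220) in all 34 cells and Flrt1 near 5902 bases (its only transcript 5872) in all 17. Dcc was near 4894 bases, close to its 4855-base coding transcript and not to the one of 10323 bases. A short assigned transcript raises TPM for the same count, so the order of the genes by TPM, with Tenm4 first, rests on these assignments. The tests used counts, which are not divided by this length, so a difference in counts can be of another size than in TPM.

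**Figure D3:**
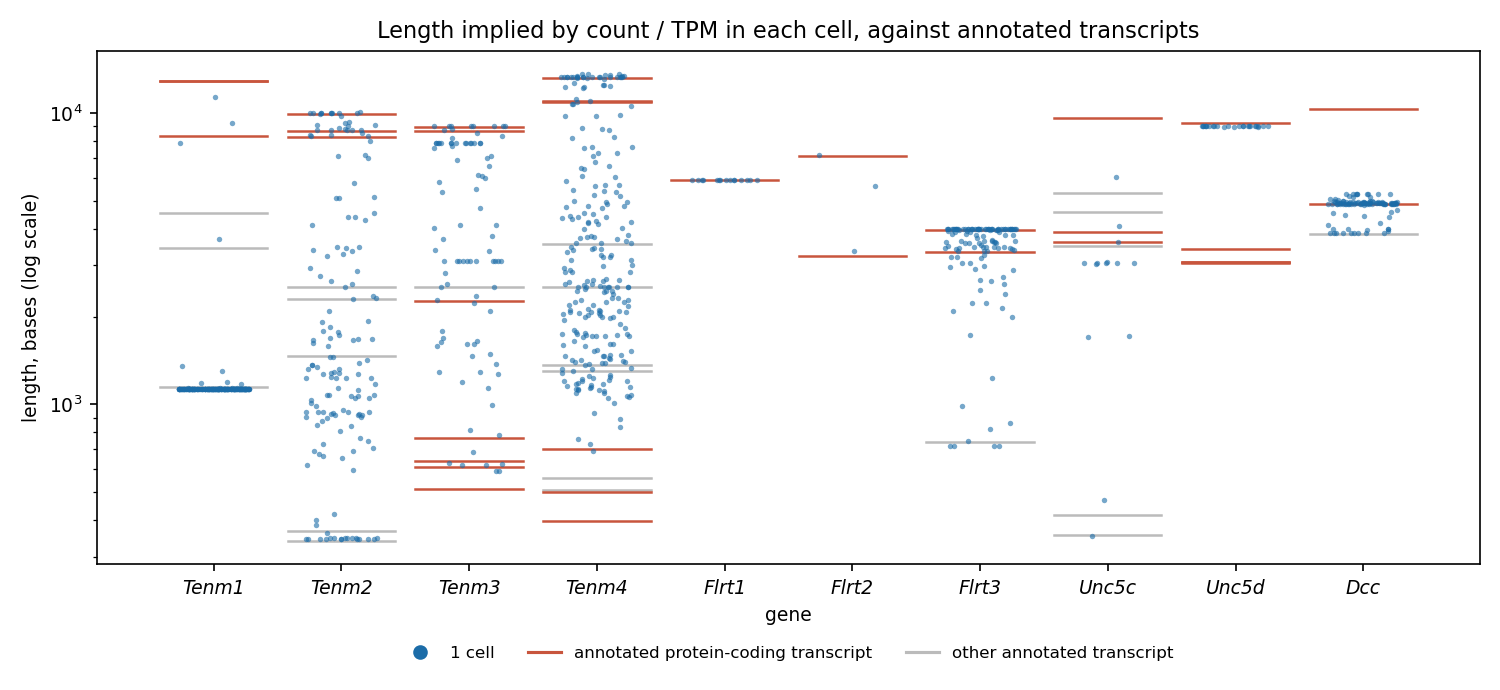
Transcript length implied by count divided by TPM in each cell with at least 5 counts (blue dots, log scale) and the lengths of annotated transcripts of GENCODE M21 (red, protein-coding, and grey, other). Tenm1 cells lie in a narrow band near 1130 bases, far below its coding transcripts, and Tenm2, Tenm3 and Tenm4 cells spread over the whole range.

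Flrt3, a ligand of both latrophilins and Unc5 receptors, was high in Sox6-only and Ddit4l-only cells and low in Vsx1-only cells. It lies on the minus strand of chromosome 2 at chr2:140650914-140671469 (mm10), within Macrod2 on the other strand, with no exonic base in common. The 250 bases before its start (RefSeq, GRCm38.p6, chr2:140671477-140671726, minus strand) are shown because Flrt3 had the smallest p-value of the 10 genes.
Flrt3 upstream: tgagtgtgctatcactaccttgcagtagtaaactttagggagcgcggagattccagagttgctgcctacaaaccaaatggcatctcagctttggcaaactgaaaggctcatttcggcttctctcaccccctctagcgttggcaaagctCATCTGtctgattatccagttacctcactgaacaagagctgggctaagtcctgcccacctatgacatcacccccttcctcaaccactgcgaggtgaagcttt
The capitals mark the only match among 6 motifs searched on both strands. These were AACAAT (Sox core), ACAAAG (Sox or TCF core), TAATCC (Otx2 or Crx), TAATTA (homeodomain), CAGATG and CAGCTG (bHLH E-boxes). CAGATG, read here as its complement CATCTG from base -102, occurs in 14.4% of 32851 mouse upstream windows of the same length. The match is a description of the sequence and no binding was measured. The promoter table matched Tenm1 to Tenm4, Flrt2, Flrt3 and Unc5c.

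The Flrt3 retina means (1la, 1Ra, 2la, 2Ra) were 54.6, 79.9, 100.1 and 114 TPM in Sox6-only cells. They were 3.84, 12.2, 11.3 and 12.8 TPM in Vsx1-only cells and 56.4, 39.6, 63.97 and 130.2 TPM in Ddit4l-only cells. Every Vsx1-only retina was below every retina of the other groups, which held for 7.3% of all genes in either direction against Sox6-only and 7.46% against Ddit4l-only cells. In CPM the mice gave 145 and 238 in Sox6-only, 19.7 and 30.8 in Vsx1-only, and 105 and 199.7 in Ddit4l-only sums. Sox6-only cells were 7.55-fold above Vsx1-only cells, a log2 fold change of 2.92 ± 0.24 (SE), with an edgeR adjusted p of 0.124. The log2 fold change of Vsx1-only against Ddit4l-only cells was -2.56 ± 0.23, or 5.88-fold lower, with an adjusted p of 0.0995. On retina sums the edgeR adjusted p-values were 0.00757 and 0.00729, and with DESeq2 they were 1.23e-22 and 4.27e-18. By mouse the log2 fold changes were 2.97 and 2.94 in the first contrast and -2.53 and -2.81 in the second. Without the cells rich in rod transcripts they were 3.25 and -2.83 over both mice.

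Sox6-only and Ddit4l-only cells had a Flrt3 difference of 0.36 ± 0.22 on the log2 scale (95% interval -0.23 to 0.95, edgeR adjusted p = 0.743). Flrt3 reached 1 TPM in 89 of 151 Sox6-only cells (58.9%, 50.7% to 66.9%), 14 of 60 Vsx1-only cells (23.3%, 13.4% to 36.04%) and 31 of 59 Ddit4l-only cells (52.5%, 39.1% to 65.7%). Thinned to 300000 counts, the shares with at least 1 count were 58.9%, 27.1% and 57.6%, against 65.6%, 30% and 62.7% unthinned. In Sox6-only cells it was at 20 TPM in 36 of 86 cells with Tenm2 (41.9%) and in 35 of 65 without (53.8%), so 36 of 151 cells had both. Both were at that level in 4 of 60 Vsx1-only and 4 of 59 Ddit4l-only cells.

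**Figure D4:**
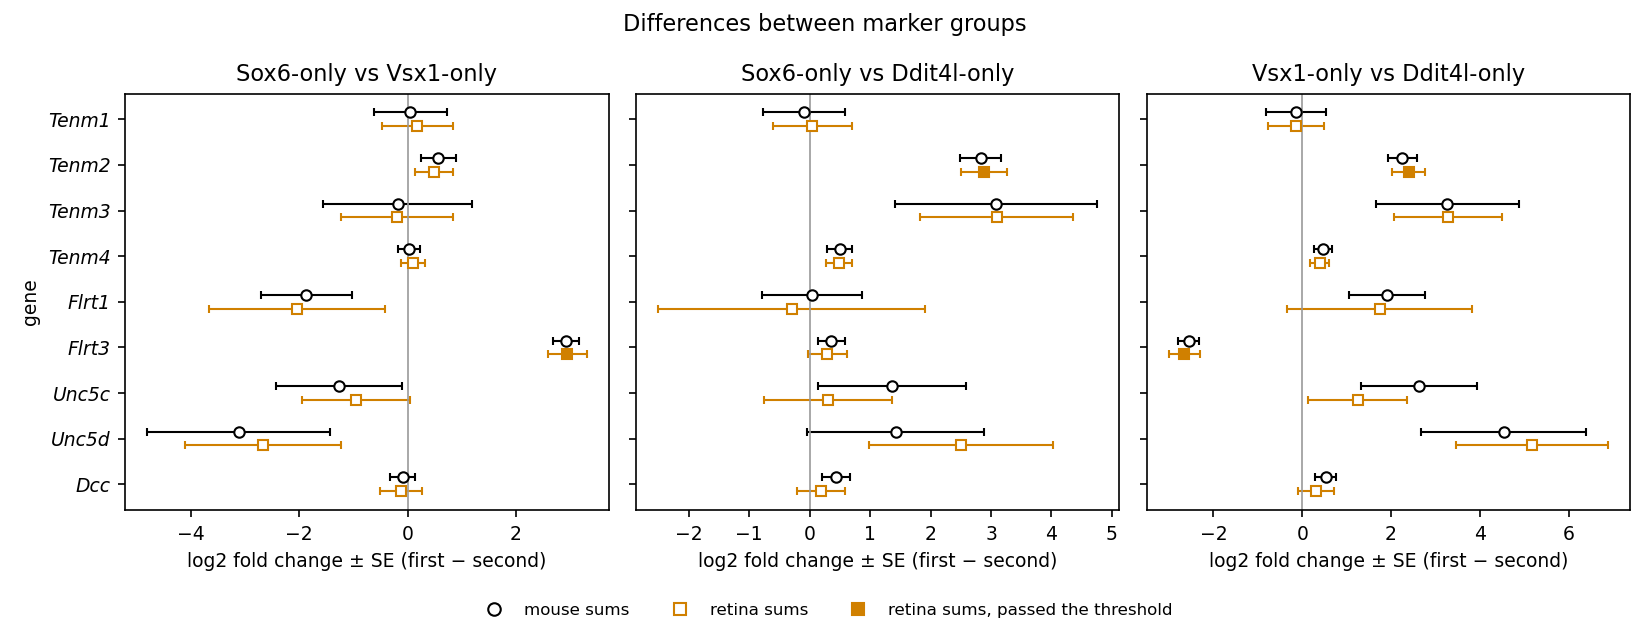
Log2 fold change with its standard error for 9 genes in the 3 contrasts of marker groups, from sums per mouse (black circles) and per retina (orange squares, filled where the threshold was passed). Flrt2 is left out because several of its sums were 0. Only Flrt3 and Tenm2 on retina sums are filled.

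Flrt1 and Flrt2 were near the limit of detection. Flrt1, which lies within Macrod1, reached 1 TPM in 4 of 151, 9 of 60 and 2 of 59 cells, and its highest retina mean was 5.61 TPM, in Vsx1-only cells of 1la. Vsx1-only cells were above the others in Flrt1 by 1.87 ± 0.84 and 1.91 ± 0.86 on the log2 scale (edgeR adjusted p = 0.653 and 0.455). Flrt2 reached 1 TPM in 1 cell of each group. Its mouse sums were 199 and 0, 0 and 194, and 0 and 50 counts, so its fitted fold changes rest on sums of 0 and are no measure of a difference.

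Unc5d, an Unc5 receptor, was highest in Vsx1-only cells among the 3 marker groups. Cells with none of the markers averaged 5.74 TPM over retinas, against 4.41 TPM in Vsx1-only cells. The retina means of Unc5d were 10.1, 4.09, 0.888 and 2.57 TPM in Vsx1-only cells. They were 0.288 to 1.35 TPM in Sox6-only and 0.013 to 1.85 TPM in Ddit4l-only cells. Vsx1-only cells were higher in each of the 4 retinas against either group, though the ranges overlapped through retina 2la. Unc5d was at 1 TPM in 16 of 60 Vsx1-only cells (26.7%), 5 of 151 Sox6-only cells (3.3%) and 2 of 59 Ddit4l-only cells (3.4%). At 300000 counts the shares with at least 1 count were 42.4%, 11.3% and 10.2%, and unthinned they were 58.3%, 26.5% and 23.7%. The log2 fold change of Vsx1-only over Ddit4l-only cells was 4.54 ± 1.86 (edgeR adjusted p = 0.422, DESeq2 adjusted p = 0.00734). That of Sox6-only against Vsx1-only cells was -3.12 ± 1.68 (edgeR adjusted p = 0.728). The mice differed. Mouse 1 had 41.8 CPM in Vsx1-only, 2.17 in Sox6-only and 0.325 in Ddit4l-only sums, and mouse 2 had 9.55, 6.86 and 3.58 CPM. Leaving out a retina or a mouse moved the first contrast to between 2.08 and 7.02 and the second to between -4.14 and -0.43. Unc5c was at 1 TPM in 18 of 151, 8 of 60 and 8 of 59 cells, and its retina means ran from 0.221 to 9.18 TPM with overlapping ranges in all groups.

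Dcc, the attractive netrin receptor, had overlapping levels in the 3 groups. Its retina means were 49.9, 35.8, 30.6 and 13.1 TPM in Sox6-only, 43.1, 46.8, 35.7 and 15.1 TPM in Vsx1-only, and 27.5, 37.6, 15.8 and 24.2 TPM in Ddit4l-only cells. Retina 2Ra was the lowest of the Sox6-only and of the Vsx1-only retinas. The log2 fold changes were -0.09 ± 0.23, 0.44 ± 0.23 and 0.53 ± 0.23 in the 3 contrasts in the order given above, with 95% intervals of -0.71 to 0.54, -0.18 to 1.07 and -0.10 to 1.16. Dcc was at 1 TPM in 64 of 151, 26 of 60 and 22 of 59 cells (42.4%, 43.3% and 37.3%). It occurred at 20 TPM in 19 of 71 Sox6-only cells with Flrt3 (26.8%) and 27 of 80 without (33.8%).

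Of 23 partner and related guidance genes, 18 could be tested and none was called on mouse sums. Their median log2 fold changes were -0.54, -0.40 and 0.14 in the 3 contrasts, beside 0.05, 0.08 and 0.01 over all genes. On retina sums, where 15 could be tested, the medians were -0.02, -0.11 and 0.16. On mouse sums 5, 4 and 6 of the 18 had an unadjusted p under 0.05, beside 8.58%, 8.06% and 12.9% of all genes. Among the receptors Lphn2 had the highest mean TPM in every group. Lphn2, a receptor for teneurins and Flrts, had retina means of 136 to 252, 141 to 279 and 174 to 449.7 TPM in Sox6-only, Vsx1-only and Ddit4l-only cells. Lphn3, the partner known for high-affinity Flrt3 binding, had retina means of 105, 113, 118 and 106 TPM in Sox6-only cells. They were 52.7, 42.3, 57.2 and 95.4 TPM in Vsx1-only and 58.4, 61.99, 59.6 and 64.8 TPM in Ddit4l-only cells, so all Sox6-only retinas were above the rest, a non-overlap found in 7.3% and 6.66% of all genes. The means of retinas were 111, 61.9 and 61.2 TPM in Sox6-only, Vsx1-only and Ddit4l-only cells. From counts the log2 fold change of Lphn3 in Sox6-only cells was 2.24 ± 0.32 over Vsx1-only and 1.73 ± 0.31 over Ddit4l-only cells. The difference was thus larger in counts than in TPM, and the reason was not tested. The edgeR adjusted p-values were 0.243 and 0.464 on mouse sums and 0.00902 and 0.0224 on retina sums. It was the only partner gene called on retina sums in either of these contrasts, and there was none in the third.

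**Figure D5:**
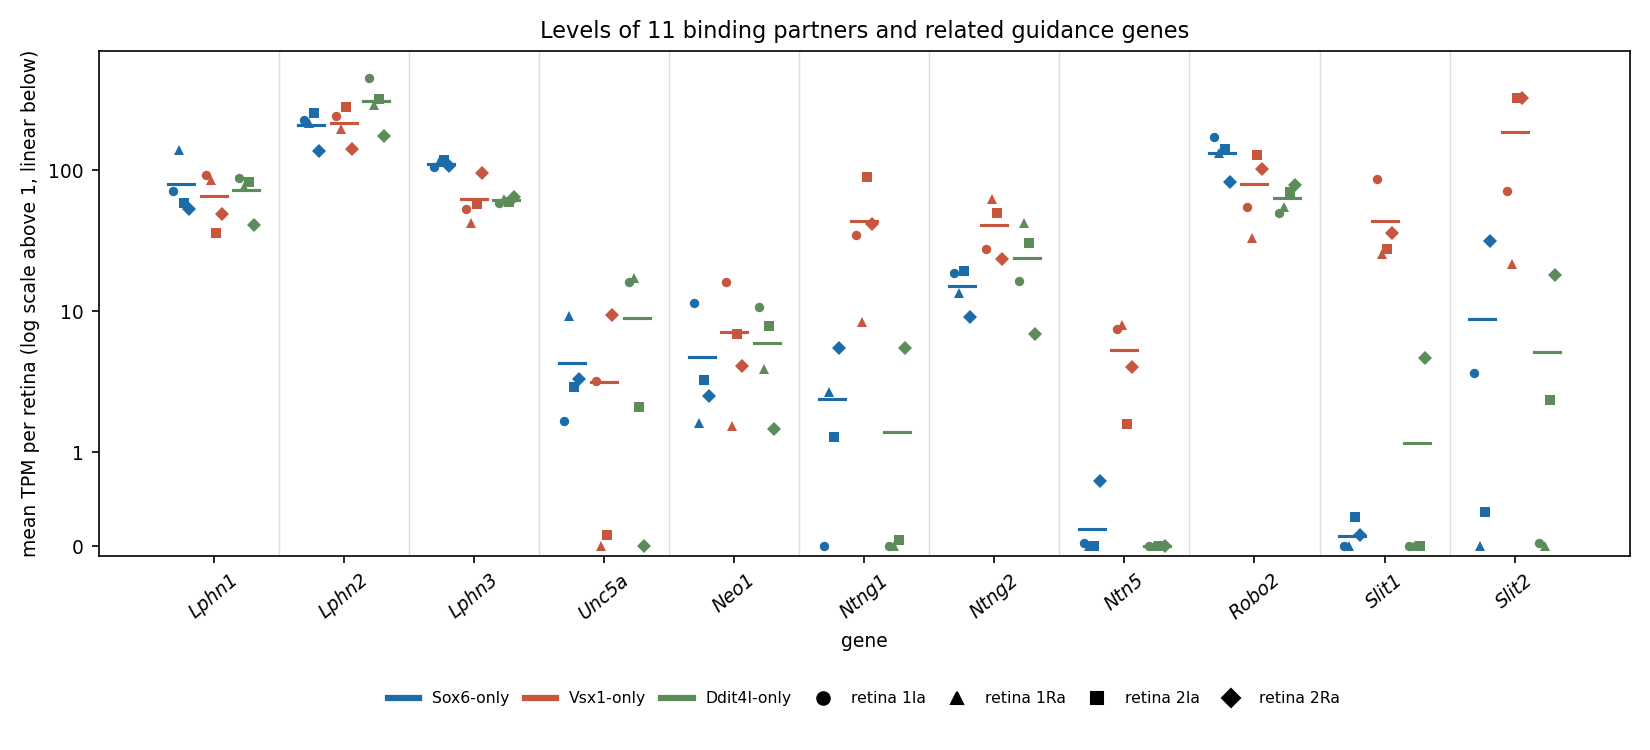
Mean TPM per retina (log scale above 1, linear below) of 11 partner and guidance genes, chosen after their values were seen, in Sox6-only (blue), Vsx1-only (red) and Ddit4l-only (green) cells. Slit1, Slit2, Ntng1 and Ntn5 are highest on average in Vsx1-only cells among these 3 groups, and Lphn3 in Sox6-only cells.

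Secreted ligands differed widely in level. Ntn1, the classic netrin, was at 0.03 TPM or below in every retina of the 3 marker groups. The receptors Robo1 and Eltd1 (Adgrl4) were also at or near 0. Some further ligands were highest on average, among the 3 marker groups, in Vsx1-only cells. In cells with none of the markers the means of retinas were higher still for Slit2 (206 against 185 TPM) and Ntng1 (73.2 against 43.7 TPM). Slit1, a repellent that acts through Robo receptors, had retina means of 85.8, 25.2, 27.6 and 35.9 TPM in Vsx1-only cells. They were at most 0.308 TPM in Sox6-only and at most 4.62 TPM in Ddit4l-only cells. Slit2 had 71.1, 21.5, 321 and 326 TPM in Vsx1-only cells, and at most 31.5 and 18.1 TPM in the other groups. Ntng1, a membrane-anchored netrin-G, had 34.9, 8.44, 89.8 and 41.8 TPM there and at most 5.52 and 5.47 TPM in the others. The median Vsx1-only cell was at 0 TPM for all 3, so the means rest on the other cells. The highest Vsx1-only cell had 338 TPM of Slit1, 4182 TPM of Slit2 and 862 TPM of Ntng1. Among cells with none of the markers the highest had 3074 TPM of Slit2 and 844 TPM of Ntng1. Single cells therefore weigh heavily in the means of Slit2 and Ntng1. In Vsx1-only against Ddit4l-only cells the unadjusted p was 0.0369 for Slit1, 0.00857 for Slit2 and 0.00255 for Ntng1, and the edgeR adjusted p-values were 0.352, 0.234 and 0.178. Robo2, a Slit receptor, had retina means of 82.4 to 172 TPM in Sox6-only, 33.2 to 128 TPM in Vsx1-only and 49.6 to 78.7 TPM in Ddit4l-only cells.

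All 13 genes of a list of intracellular effectors, kinases and adaptors downstream of Dcc, Unc5 and Flrt receptors, were tested and none was called on mouse or on retina sums. On mouse sums 1, 3 and 3 of the 13 had an unadjusted p under 0.05, beside the same 8.58%, 8.06% and 12.9% of all genes. Ablim1, an actin-binding protein, had retina means of 18.2 to 54.4, 0.51 to 18.2 and 22.6 to 40.8 TPM in Sox6-only, Vsx1-only and Ddit4l-only cells, with a log2 fold change of 1.81 ± 0.66 between the first pair (edgeR adjusted p = 0.575). Rnd3, a small GTPase, was 1.87 lower on the log2 scale in Sox6-only than in Ddit4l-only cells (SE 0.51, edgeR adjusted p = 0.520).

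Ra and la retinas were compared in Sox6-only cells, with 2 retinas of each suffix. The edgeR test called 0 (0%) of 15745 genes, with 1212 (7.7%) at an unadjusted p under 0.05. Flrt2 was too low to be tested. The other 9 genes included 1 at an unadjusted p under 0.05, Unc5c. Its retina means were 3.13 and 5.14 TPM in the Ra and 0.337 and 0.63 TPM in the la retinas, which did not overlap, as for 41.2% of all genes tested in this comparison of 2 with 2 retinas. The shares of cells at 1 TPM were close, with 4 of 30 and 6 of 42 cells in the Ra and 4 of 33 and 4 of 46 in the la retinas. At 20 TPM there were 1 and 3 cells in the Ra and 0 and 0 in the la retinas, so the difference in means rests on 4 cells. Its log2 fold change of Ra over la was 4.13 ± 0.94 (SE), with an unadjusted p of 0.00900 and an edgeR adjusted p of 0.502. The median total count of Sox6-only cells was 747269 in 1Ra and 1000627 in 2Ra, against 1304984 in 1la and 1193941 in 2la, and the part of depth in this difference was not tested. For Tenm1, Tenm2, Tenm3 and Tenm4 the log2 fold changes were 1.03, -0.23, -0.69 and -0.05, with standard errors of 0.62, 0.33, 0.38 and 0.38. For Flrt1, Flrt3, Unc5d and Dcc they were -1.32, 0.54, 1.09 and -0.75, with standard errors of 1.65, 0.38, 1.14 and 0.58. The edgeR adjusted p-values of these 8 genes were at least 0.765.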

How the data were processed

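Single cells from 4 retinas of 2 mice were measured. The submitters' processing notes name RSEM 1.2.28, TopHat2 2.0.10 and the build mm10, and the annotation is not given in the sources used here. The authors deposited RSEM expected counts, which are not normalised, and TPM per gene and cell. Low-RNA cells under 3000 genes were left out.

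Expected counts were rounded, summed per mouse and marker group and tested with edgeR 4.0.16 (quasi-likelihood F test, TMM, filterByExpr, limma 3.58.1, R 4.3.3), with the mouse as a block. All 3 groups shared 1 fit. Summed totals ran from 27646122 to 96076851 counts. CPM were computed here. The block is the animal: the correlations of the mouse deviations between groups were 0.02, 0.07 and 0.03 over 16646 genes. Ra and la retinas were compared in 4 retina sums without a block. On data simulated for Sox6-only against Vsx1-only cells, with 16203 genes, the fit called 2, 20, 46 and 43 of 50 genes changed 2-, 4-, 8- and 16-fold, with 3 false calls. The changed genes were drawn from those with a mean of at least 20 CPM. Each simulated gene had the spread of the fitted trend at its level, with no mouse effect and no spread of its own. The shares recovered therefore need not hold for the measured genes.

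The 10 genes were always named. List members are named from their calls or, where none was called, after their values were seen. The members and lists were chosen with earlier results of these data known. Positions and lengths are from GENCODE M21 (GRCm38) and upstream sequence is from RefSeq. Alternatives were retina sums, no block, DESeq2 1.42.0, RLE size factors, no low-count filter, robust dispersions, marker levels of 10 and 50 TPM, at least 5000 genes, no rod-rich cells, limma on log2(TPM + 1) and leaving out retinas or mice.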

Additional observations from a re-analysis of the deposited data

Results flagged for a closer look

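Retina means of the 10 genes were checked in each of 3 groups. Of these 30 sets of 4 retinas, 6 had a value far from the others by Dixon's 95% criterion for 4 values. Chance gives this for about 1 in 20 sets of normally distributed values. That rate does not hold where a mean rests on 1 or 2 cells, as for Flrt2, Unc5c and Unc5d below. The 6 are therefore no measure of an excess of unusual retinas. Flrt2 had 3 of them: 2.06 TPM in Sox6-only cells of 1Ra, 2.74 TPM in Vsx1-only cells of 2Ra and 1.97 TPM in Ddit4l-only cells of 2Ra, each next to retinas at or near 0. In each of these groups 1 cell was at 1 TPM or more. Flrt3 in Vsx1-only cells was 3.84 TPM in 1la and 11.3 to 12.8 TPM in the other retinas, so the low group held a still lower retina. Unc5c and Unc5d in Ddit4l-only cells of 2Ra were 7.92 and 1.85 TPM, against at most 0.626 and 0.0963 TPM in the other 3 retinas. In 2Ra 1 of 10 Ddit4l-only cells held Unc5c and 2 of 10 held Unc5d at 1 TPM or more, the highest at 79.2 and 16.6 TPM.

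The mice went opposite ways for Unc5c, and this difference was not tested. Sox6-only minus Vsx1-only was -5.24 TPM in mouse 1 and 0.45 TPM in mouse 2, and Vsx1-only minus Ddit4l-only was 6.66 TPM in mouse 1 and -0.72 TPM in mouse 2. Unc5c was at 20 TPM in 4 Sox6-only, 3 Vsx1-only and 1 Ddit4l-only cells, the highest at 120, 159 and 79.2 TPM. Single cells therefore weigh heavily in these differences.

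Cells outside the 3 marker groups held some of the genes above the highest compared retina. Tenm1 averaged 73.3 TPM over retinas in cells with none of the 3 markers, against a highest retina of 43.1 TPM in the compared groups. Flrt1 averaged 10.2 TPM there, against 5.61 TPM. That average rests on 1 cell at 161 TPM among the 4 of retina 2la, whose mean was 40.4 TPM. Tenm3 averaged 61.9 TPM in the 18 cells with more than 1 marker, against 44.8 TPM. Retina 1la, with a mean of 136 TPM, held 2 of these cells, of which 1 reached 1 TPM (271 TPM).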

How the results depend on the processing

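The size of the Flrt3 and Tenm2 differences kept its direction in each alternative run, while their calls did not hold in all. The adjusted p of Flrt3 ran from 1.23e-22 to 0.471 (Sox6-only against Vsx1-only) and from 4.27e-18 to 0.309 (Vsx1-only against Ddit4l-only), and that of Tenm2 against Ddit4l-only cells from 5.22e-11 to 0.830 and from 1.36e-07 to 0.429, leaving out a retina included. Without 1 retina or with 1 mouse alone the log2 fold changes stayed within 2.62 to 3.35, -3.19 to -2.06, 2.52 to 3.22 and 1.88 to 2.801.

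The genes called in the 3 contrasts of marker groups (0, 0 and 7 with edgeR on mouse sums) were 853, 761 and 1615 with DESeq2, 66, 24 and 231 with limma on log2(TPM + 1), and 117, 80 and 333 on retina sums. Without a replicate block they were 16, 2 and 62, and no call of the 10 genes changed. The block is the mouse, and in the Ra against la contrast adding it gave 0 calls, with 963 genes at an unadjusted p under 0.05. For Sox6-only against Vsx1-only cells there were 3 calls with no filter on low counts and 1 with markers at 50 TPM. For Vsx1-only against Ddit4l-only cells there were 4 with at least 5000 genes, 4 with markers at 50 TPM and 0 without rod-rich cells. Leaving out retinas gave 0 (without 1la or 1Ra), 4 (2Ra) and 11 (2la) there and 0 in the other contrasts. At 20 TPM instead of 1 TPM the genes of the 10 found in most cells went from 4, 4 and 3 to 2, 1 and 1. The cause of these shifts was not tested.

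Under settings that kept all retinas other differences turned sign, most of them near 0 in the main values. The exceptions were Flrt2, whose fitted values of 4.62 and 6.49 against Vsx1-only and Ddit4l-only cells rest on sums of 0, Unc5c (-1.26) and Unc5d in Ra against la (1.09). In Sox6-only against Vsx1-only cells Tenm1 was -0.32 (limma), -0.036 (50 TPM) and -0.077 (no block). Tenm3 was 0.057 (limma) and 0.28 (no rod-rich cells). Tenm4 was -0.021 (DESeq2), -0.021 (RLE), -0.069 (5000 genes), -0.23 (limma) and -0.14 (no rod-rich cells). Flrt2 was -4.10 (5000 genes), -1.05 (no block) and -1.13 (no rod-rich cells), Unc5c 0.041 (no rod-rich cells) and Dcc 0.0056 (5000 genes). In Sox6-only against Ddit4l-only cells Tenm1 was 0.013 (5000 genes), 0.12 (limma) and 0.041 (retina sums), and Flrt2 -2.25 (5000 genes). Flrt1 was -0.011 (DESeq2), -0.009 (RLE), -0.37 (limma), -2.43 (10 TPM), -0.16 (no block) and -0.30 (retina sums). Tenm1 was 0.44 in Vsx1-only against Ddit4l-only cells (limma), and Unc5d -1.07 in Ra against la (50 TPM).

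Leaving out retinas or mice turned the sign in these ranges, also where the value over all retinas was not near 0 (Unc5c 1.37 and 2.63 against Ddit4l-only cells, Flrt1 1.91 for Vsx1-only against Ddit4l-only cells). For Sox6-only against Vsx1-only cells they were -0.41 to 0.69 (Tenm1), -0.85 to 0.043 (Tenm3), -0.13 to 0.36 (Tenm4), -9.44 to 5.23 (Flrt2) and -0.29 to 0.018 (Dcc). Against Ddit4l-only cells they were -0.82 to 0.79 (Tenm1), -2.76 to 2.26 (Flrt1), -7.93 to 7.16 (Flrt2), -0.53 to 1.85 (Unc5c) and -0.30 to 0.77 (Dcc). For Vsx1-only against Ddit4l-only cells they were -0.52 to 0.24 (Tenm1), -0.082 to 4.07 (Flrt1), -0.16 to 3.12 (Unc5c) and -0.29 to 0.90 (Dcc). For Ra against la they were -0.50 to 0.12 (Tenm2), -0.64 to 0.37 (Tenm4) and -0.20 to 1.80 (Unc5d).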

Other observations

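The 33 cells with none of the 3 markers differed among retinas in Tenm1, with means of 115 and 134 TPM in 1la and 2la and 13.6 and 30.95 TPM in 1Ra and 2Ra. Most of them showed the short implied length too, 15 of the 22 with at least 5 counts. The median cell had 13.1 TPM and the highest 912 TPM, so a few cells carried the mean. Dcc was at 1 TPM in 9 of these 33 cells and Flrt3 in 17. In the 18 cells with more than 1 marker, Flrt3 was at 20 TPM in 13.

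The genes whose counts followed Tenm2 most closely over the 12 sums per retina and group were Cdh20, a cadherin (Pearson r = 0.952), Adcy2, an adenylate cyclase (0.939), and Drd2, a dopamine receptor (0.937). Those closest to Flrt3 were Ly6h (0.939), Sulf2, an extracellular sulfatase (0.930), and Cabp5, a calcium-binding protein (0.923). Between Tenm2 and Flrt3 r was -0.22. These values were drawn from log2(CPM + 1), the 12 sums share animals and groups, and the genes were looked up although neither gene was called on mouse sums.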
